A study of Mus musculus with 16 samples.

Results

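Arg1, Nos2, Acod1, Ido1, Kynu and Slc7a2, 6 of the 30095 genes in the table, were followed across 16 libraries of tumour-bearing lung. They were selected by gene symbol, as the enzymes with which myeloid cells use up arginine and tryptophan or make itaconate, together with a transporter that brings arginine into the cell. All 6 passed the filter on low values, and they are called enzymes or enzyme genes below, the transporter included. The set was chosen with earlier results of these data known, so differences between radiation doses are given for these genes as descriptions, with no p-value. Tests are given for the antibody and for the way dose and antibody combine. For other genes of the same pathways, p-values are printed between doses as well. Those genes were also chosen with earlier results known, so their counts and p-values between doses are descriptions and support nothing.

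The tissue was whole lung of C57BL/6 mice bearing tumours of HKP1, a mouse lung adenocarcinoma line, and its transcripts were counted by bulk RNA sequencing. Doses of 0, 4 or 8 Gy were combined with IgG or with anti-PD-1, an antibody that blocks an inhibitory receptor of T cells, and the labels place collection 24 to 48 hours after irradiation. The IgG arm held 3, 2 and 3 libraries and the anti-PD-1 arm 2, 3 and 3 libraries, in the order of the doses. Each library was a pool of 3 to 4 mice and held RNA of tumour, lung and immune cells together. The labels do not say that the pools of a group were prepared separately, and the p-values below therefore reflect variation among pools that may be partly technical.

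Arginine, once inside a macrophage, can go to either of 2 enzymes. Arginase 1, encoded by Arg1, cuts it to ornithine and urea, and ornithine feeds the synthesis of polyamines and proline. Inducible nitric oxide synthase, encoded by Nos2, turns it into citrulline and nitric oxide. Tryptophan is opened by indoleamine 2,3-dioxygenase 1, encoded by Ido1, and kynureninase, encoded by Kynu, acts further down the kynurenine pathway. Acod1 encodes the mitochondrial enzyme that makes itaconate from cis-aconitate, an intermediate of the citric acid cycle. Slc7a2 encodes CAT2, a cationic amino acid transporter. Local loss of arginine and tryptophan is known to restrain T cells, and Nos2, Acod1 and Ido1 are textbook targets of interferon gamma and inflammatory signals, while Arg1 is known to be induced by interleukins 4 and 13 and by low oxygen.

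The libraries varied in depth, since 1 read was worth between 0.0155 and 0.0418 CPM, the unit of the table, in which reads are scaled to a common library size. Replicates 2 and 3 of the group given anti-PD-1 with 4 Gy stood apart, with scores of -81.5 and -98.3 on the first principal component (range of the other 14, -46.8 to 51.9) and with 6210 and 5435 genes without reads against 2383 to 3987. The lowest score of the other 14 was that of replicate 1 of the same group. Leaving out these 2 outlying libraries leaves 1 library in that group, as leaving out IgG 4 Gy replicate 2 does in its own group. A result that changes in such a fit cannot be told apart from an effect of the smaller group. The median log2 difference of all tested genes was -0.09 for 8 Gy against 0 Gy and -0.14 for 4 Gy against 0 Gy. It moved to 0.03 and -0.05 with quantile normalization and to 0.02 and -0.03 with equal library medians. Sheet numbers in the titles ran from 13 to 17 without irradiation, from 26 to 30 after 4 Gy and from 31 to 36 after 8 Gy, and at each dose the IgG libraries came before the anti-PD-1 libraries. Neither dose nor antibody can be told apart from any effect of that order.

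On the build mm10 with GENCODE M21 annotation, Arg1 (ENSMUSG00000019987) lies on the minus strand of chromosome 10, from 24915221 to 24927484. Nos2 (ENSMUSG00000020826) lies on the plus strand of chromosome 11, from 78920787 to 78960254, and Acod1 (ENSMUSG00000022126) on the plus strand of chromosome 14, from 103046977 to 103056573. Chromosome 8 carries Ido1 (ENSMUSG00000031551, minus strand, 24584136 to 24597009) and Slc7a2 (ENSMUSG00000031596, plus strand, 40862396 to 40922308), and Kynu (ENSMUSG00000026866) lies on the plus strand of chromosome 2, from 43555329 to 43682715. The span of Slc7a2 overlaps Gm26584, a long non-coding RNA gene on the opposite strand, and without strand the reads of these 2 genes cannot be told apart. The other 5 overlapped no annotated gene.

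A promoter sequence was found for 1 of the 6 genes, Acod1, whose level differed most between 8 and 0 Gy. The first 200 bases of the 300-base window (250 before to 50 after the start site, RefSeq, GRCm38.p6) are shown, at chr14:103046762-103046961 on the plus strand, with the matches to 2 motifs in capitals.
Acod1: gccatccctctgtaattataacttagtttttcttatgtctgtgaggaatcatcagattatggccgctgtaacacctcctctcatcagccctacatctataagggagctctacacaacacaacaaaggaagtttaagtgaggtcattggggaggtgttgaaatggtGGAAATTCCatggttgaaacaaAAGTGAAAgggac
The motifs searched on both strands were picked after this sequence had been read, which holds in particular for the NF-kB form. The first capitals match GGAANTTCC, an NF-kB form held by 0.928% of the 32851 promoters in the table, and start at position -85 from the start site. The second match AANNGAAA, the core bound by interferon regulatory factors, which 23.9% of promoters hold, and start at position -63. The window held no match to TTCNNNGAA (gamma-activated site, 8.30% of promoters), TGANTCA (AP-1, 7.81%), TTGCNNAA (C/EBP, 10.8%) or the interferon-stimulated response element, searched as GAAA, 2 bases of any kind and GAAA (3.44%). The element holds the interferon regulatory factor core within it, so those searches overlap.

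Arg1, the arginase that marks wound-healing and suppressive macrophages, was high at 8 Gy. The 3 libraries with IgG and no irradiation had 149, 232 and 81.1 CPM, and the 2 with anti-PD-1 and no irradiation 128 and 86.1 CPM. At 4 Gy the values were 93.8 and 124 CPM with IgG, and 152, 74.7 and 132 CPM with anti-PD-1. At 8 Gy they were 831, 456 and 401 CPM with IgG, and 345, 275 and 365 CPM with anti-PD-1. Every 8 Gy library lay above every library of the other doses, whereas the 0 and 4 Gy libraries overlapped. The level at 8 Gy was 1.77 ± 0.28 higher than at 0 Gy (log2 difference of CPM + 0.5, ± SE, over both antibodies) and 1.90 ± 0.28 higher than at 4 Gy. Between 4 and 0 Gy the difference was -0.13 ± 0.29. In bulk tissue, more cells of a type and more RNA per cell cannot be told apart, here and below.

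Nos2, which makes nitric oxide from the same substrate, was already high at 4 Gy in part of the libraries. Unirradiated libraries had 10.4, 5.98 and 23.5 CPM with IgG and 11.1 and 6.97 CPM with anti-PD-1. The 4 Gy libraries had 26.6 and 18.6 CPM with IgG, and 14.4, 74.3 and 112 CPM with anti-PD-1, the last 2 being the libraries that stood apart. At 8 Gy the levels were 31.3, 39.8 and 27.7 CPM with IgG, and 37.0, 56.5 and 29.2 CPM with anti-PD-1. All 8 Gy libraries lay above all 0 Gy libraries, while the 4 Gy libraries overlapped both other doses. Against 0 Gy the log2 difference was 1.79 ± 0.45 at 8 Gy and 1.68 ± 0.48 at 4 Gy. Without the 2 outlying libraries the second of these was 0.81, and the difference between 8 and 4 Gy was 0.98 in place of 0.11 ± 0.45.

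Acod1, whose product itaconate inhibits succinate dehydrogenase, had the largest dose difference of the 6. Its levels without irradiation were 10.9, 4.69 and 15.01 CPM with IgG and 4.78 and 5.49 CPM with anti-PD-1. After 4 Gy they were 17.8 and 15.5 CPM with IgG, and 21.0, 26.8 and 53.0 CPM with anti-PD-1. After 8 Gy they were 43.0, 75.0 and 46.7 CPM with IgG, and 43.9, 45.1 and 18.8 CPM with anti-PD-1. Both irradiated groups lay above the unirradiated libraries with no overlap, and they overlapped each other. The log2 difference was 2.53 ± 0.32 for 8 Gy against 0 Gy, which is 5.78-fold on that scale, 1.65 ± 0.34 for 4 Gy against 0 Gy and 0.88 ± 0.32 for 8 Gy against 4 Gy.

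Ido1, the first enzyme of the kynurenine pathway, followed Nos2 across the libraries. Without irradiation it had 17.3, 6.92 and 44.96 CPM with IgG and 28.6 and 17.4 CPM with anti-PD-1. The 4 Gy values were 63.7 and 44.0 CPM with IgG, and 37.7, 102 and 127 CPM with anti-PD-1, the last 2 being the libraries that stood apart. The 8 Gy values were 61.0, 85.3 and 68.1 CPM with IgG, and 105, 104 and 74.1 CPM with anti-PD-1. The 8 Gy and 0 Gy libraries did not overlap, but 2 of the 5 libraries at 4 Gy lay below the highest unirradiated one. The log2 differences were 2.01 ± 0.40 for 8 Gy against 0 Gy, 1.68 ± 0.42 for 4 Gy against 0 Gy and 0.33 ± 0.40 for 8 Gy against 4 Gy. Without the 2 outlying libraries the last 2 of these were 1.15 and 0.86.

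Kynu, which splits kynurenine and 3-hydroxykynurenine, was the least abundant of the 6 and differed little. Levels without irradiation were 6.94, 10.8 and 10.04 CPM with IgG and 4.21 and 7.43 CPM with anti-PD-1. They were 6.53 and 6.93 CPM with IgG and 7.78, 4.43 and 4.53 CPM with anti-PD-1 at 4 Gy, and 9.03, 12.5, 10.5, 10.2, 8.47 and 5.51 CPM in the 8 Gy libraries in the same order. All 3 doses overlapped. The log2 difference was 0.33 ± 0.21 for 8 Gy against 0 Gy, -0.23 ± 0.22 for 4 Gy against 0 Gy and 0.56 ± 0.21 for 8 Gy against 4 Gy.

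Slc7a2, the arginine transporter, had its highest levels at 8 Gy. The unirradiated libraries had 80.5, 90.4 and 88.5 CPM with IgG and 57.7 and 78.7 CPM with anti-PD-1, and the 4 Gy libraries 77.6 and 66.2 CPM with IgG and 78.9, 45.1 and 66.8 CPM with anti-PD-1. The 8 Gy libraries had 126, 124 and 111 CPM with IgG, and 121, 99.5 and 87.5 CPM with anti-PD-1. They lay above all 4 Gy libraries, and 1 of them fell within the range of the unirradiated libraries. The log2 difference was 0.73 ± 0.14 for 8 Gy against 4 Gy, 0.53 ± 0.14 for 8 Gy against 0 Gy and -0.19 ± 0.15 for 4 Gy against 0 Gy.

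**Figure D1:**
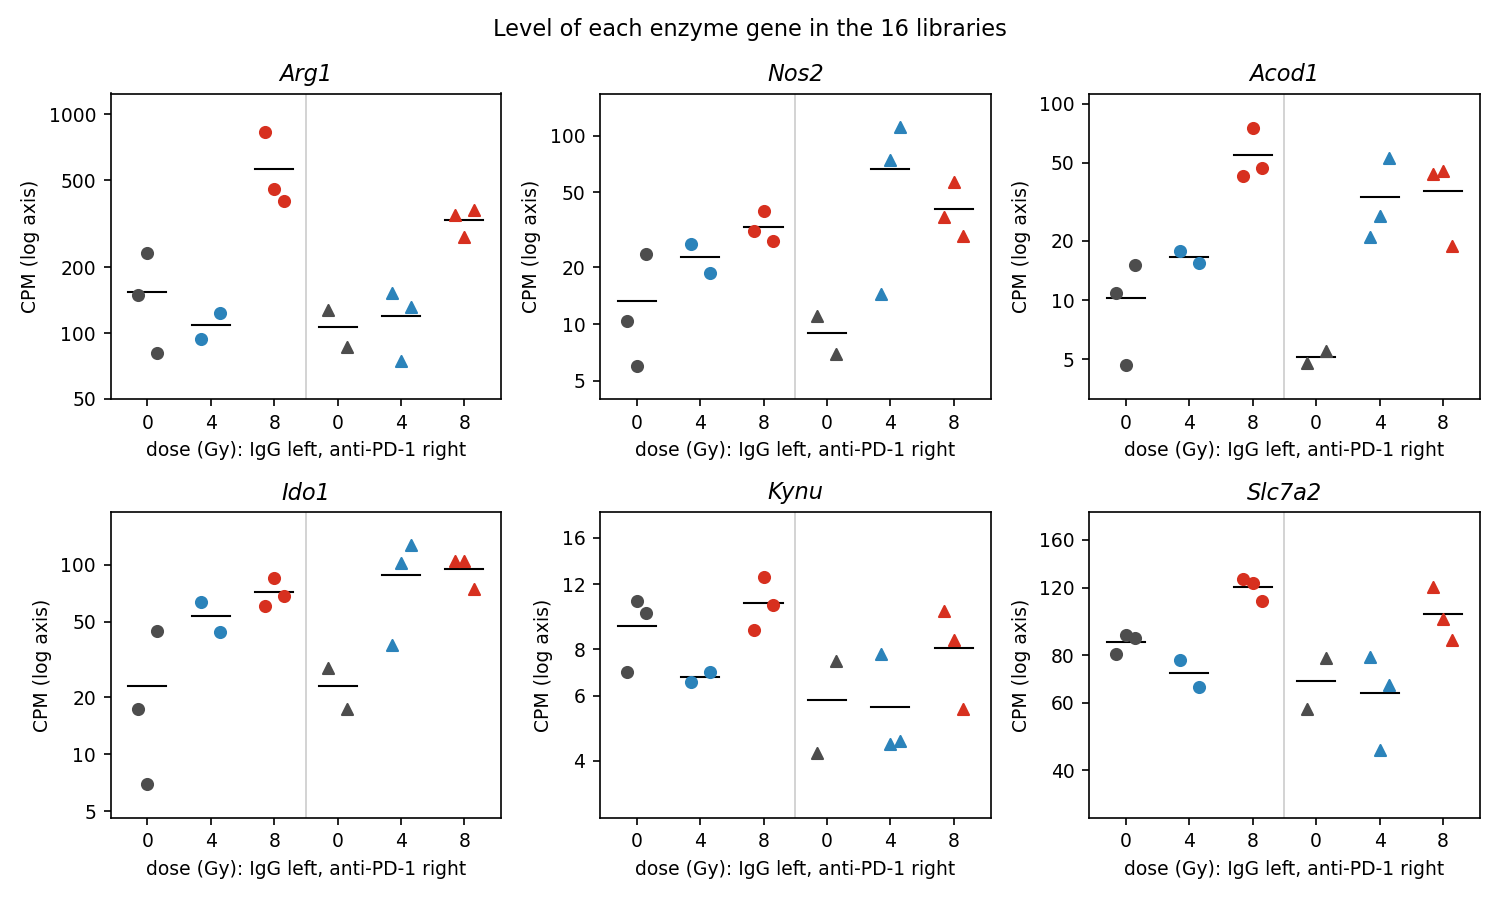
CPM on a log axis (vertical) against radiation dose in Gy (horizontal) for each gene, with IgG libraries as circles on the left and anti-PD-1 libraries as triangles on the right. Each point is 1 library and each bar a group mean. For Arg1 the 6 libraries at 8 Gy sit at 275 CPM or more and the other 10 at 232 CPM or less, while the highest points of Nos2, at 74.3 and 112 CPM, belong to anti-PD-1 with 4 Gy.

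Of the 6 genes, 4 (Arg1, Nos2, Acod1 and Ido1) had every 8 Gy library above every 0 Gy library, which was so for 1.54% of all tested genes. For 4 Gy against 0 Gy this was so for Acod1 alone, against 1.73% of all genes. For 8 Gy against 4 Gy it was so for 2, Arg1 and Slc7a2, against 6.06% of all genes. These shares are a background to the counts and support nothing, since the genes were chosen with such results in view. The smallest and largest differences of the 6 within 1 antibody arm, for 8 Gy against 0 Gy, were 0.21 ± 0.28 (Kynu) and 2.47 ± 0.43 (Acod1) with IgG, and 0.44 ± 0.31 (Kynu) and 2.60 ± 0.48 (Acod1) with anti-PD-1. For 4 Gy against 0 Gy, Nos2 differed by 0.93 ± 0.67 with IgG and by 2.43 ± 0.67 with anti-PD-1, and Acod1 by 0.81 ± 0.48 and 2.49 ± 0.48.

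**Figure D2:**
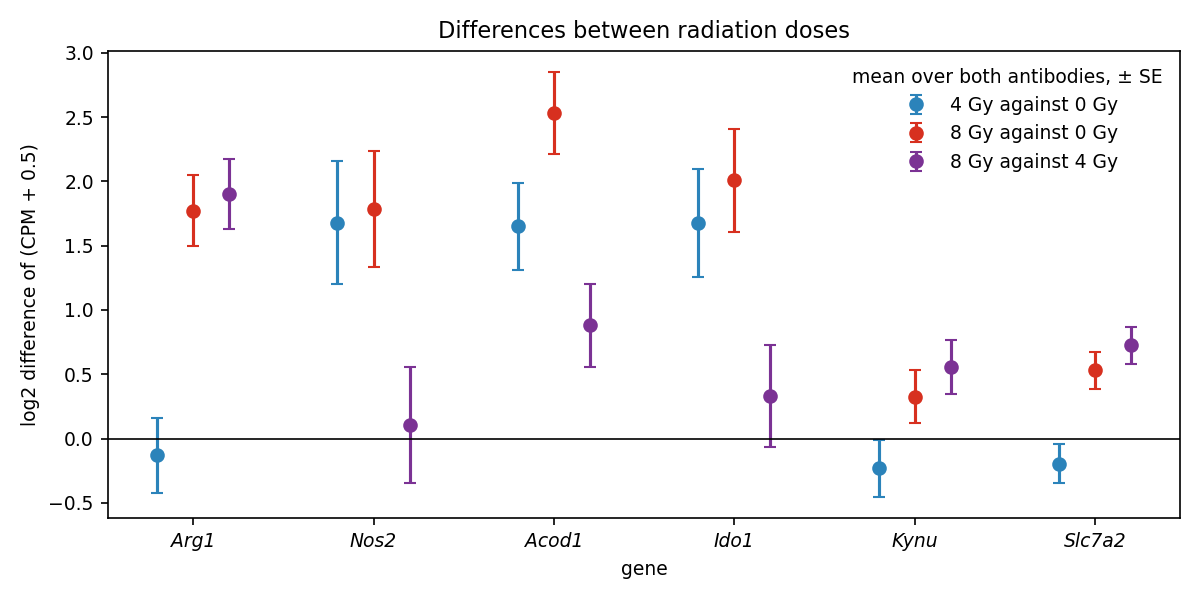
Log2 difference of CPM + 0.5 (vertical) between doses for the 6 genes (horizontal), as the mean over both antibodies, with error bars of 1 SE. Arg1 shows differences of 1.77 and 1.90 for 8 Gy against 0 and 4 Gy and -0.13 for 4 Gy against 0 Gy, whereas Nos2, Acod1 and Ido1 show 1.65 to 1.68 for 4 Gy against 0 Gy. Without the 2 outlying libraries, which are included here, those values were 0.81 (Nos2), 1.37 (Acod1) and 1.15 (Ido1).

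Ordered by group mean, Arg1 was highest with IgG at 8 Gy (563 ± 234 CPM, SD, n = 3), followed by anti-PD-1 at 8 Gy (329 ± 47.3 CPM, n = 3) and IgG at 0 Gy (154 ± 75.8 CPM, n = 3). The ranges of these 3 neighbours did not overlap, and those of the remaining groups, at 107 to 120 CPM, overlapped their neighbours. Nos2 ran from 66.8 ± 49.1 CPM with anti-PD-1 at 4 Gy down to 9.01 ± 2.89 CPM with anti-PD-1 at 0 Gy, and the only neighbours without overlap were IgG at 8 Gy (32.95 ± 6.18 CPM) and IgG at 4 Gy (22.6 ± 5.62 CPM). Acod1 was highest with IgG at 8 Gy (54.9 ± 17.5 CPM) and lowest with anti-PD-1 at 0 Gy (5.13 ± 0.50 CPM, n = 2). IgG at 4 Gy (16.6 ± 1.66 CPM) overlapped neither the next higher group, anti-PD-1 at 4 Gy (33.6 ± 17.1 CPM), nor the next lower one, IgG at 0 Gy (10.2 ± 5.20 CPM). All neighbouring groups of Ido1 overlapped, from 94.6 ± 17.7 CPM with anti-PD-1 at 8 Gy to 23.0 ± 7.97 CPM with anti-PD-1 at 0 Gy. So did those of Kynu, from 10.7 ± 1.75 CPM with IgG at 8 Gy to 5.58 ± 1.90 CPM with anti-PD-1 at 4 Gy. For Slc7a2, from 120 ± 8.21 CPM with IgG at 8 Gy to 63.6 ± 17.2 CPM with anti-PD-1 at 4 Gy, only IgG at 0 Gy (86.4 ± 5.27 CPM) and IgG at 4 Gy (71.9 ± 8.09 CPM) were neighbours without overlap.

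Levels were compared between genes per kilobase of exon. At 0 Gy the mean CPM per kilobase was 60.8 for Arg1, 12.6 for Ido1, 8.67 for Slc7a2, 3.12 for Acod1, 2.62 for Nos2 and 1.28 for Kynu. At 8 Gy it was 199.98 for Arg1, 45.5 for Ido1, 17.3 for Acod1, 12.2 for Slc7a2, 8.37 for Nos2 and 1.52 for Kynu, so Acod1 stood above Slc7a2 there. Arg1 had more CPM than Nos2 in every library. The ratio of their CPM, not divided by exon length, was 1.01 and 1.18 in the 2 outlying libraries and between 3.45 and 38.8 in the other 14. Per kilobase of exon the ratio was 1.99 and 2.34 in those 2 and between 6.83 and 76.9 in the other 14. The median of the CPM ratio was 12.4, 3.53 and 11.99 at 0, 4 and 8 Gy, and the ranges of all 3 doses overlapped.

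Nos2, Acod1 and Ido1 varied together, and Arg1 varied differently within groups. Across the 16 libraries Pearson's r of the log2 levels was 0.93 between Nos2 and Ido1, 0.85 between Acod1 and Ido1 and 0.84 between Nos2 and Acod1. With the group means subtracted it was 0.91, 0.80 and 0.75. For Arg1, r over the libraries was 0.16 with Nos2, 0.22 with Ido1 and 0.52 with Acod1, and after subtracting group means it was -0.54, -0.67 and -0.52. Kynu and Slc7a2 had r = 0.84, and 0.74 within groups. Leaving out the 2 outlying libraries, with group means not subtracted, r was 0.96 for Nos2 with Ido1 and 0.52 for Arg1 with Nos2, beside 0.93 and 0.16. The values within groups were not computed without those 2 libraries. These values describe 16 pools that share their depth and cell makeup, and carry no test.

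**Figure D3:**
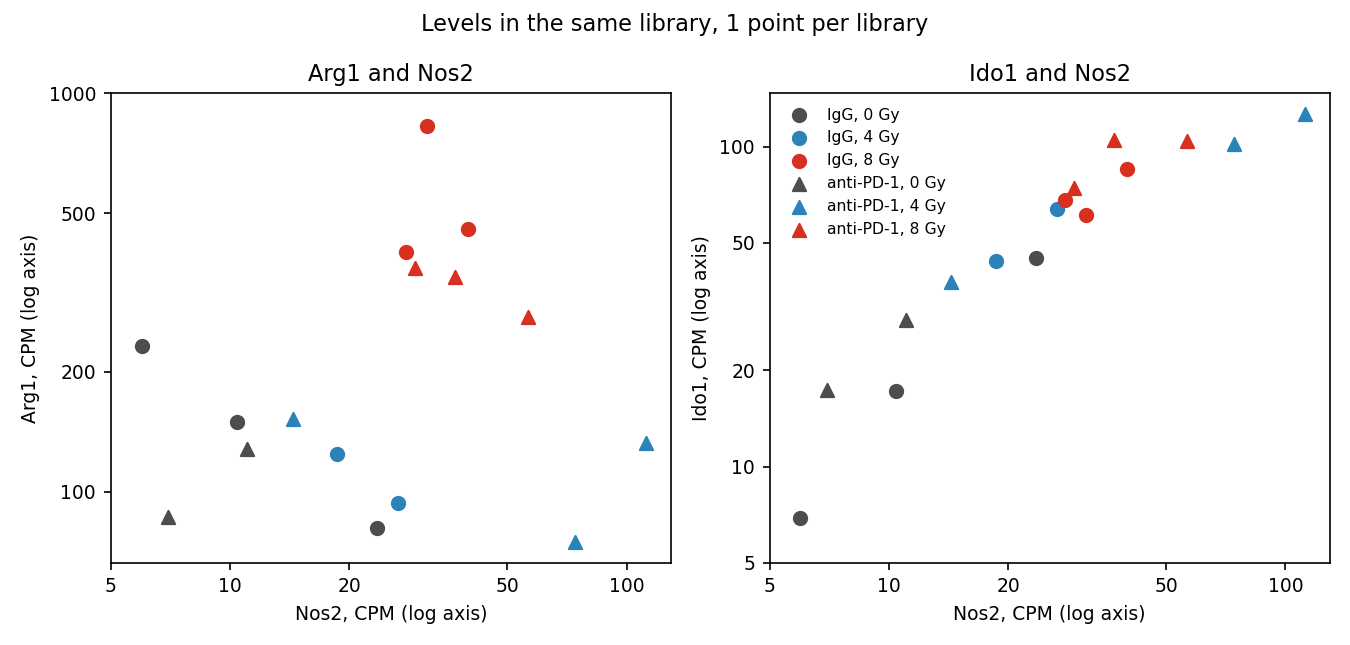
CPM of Arg1 (left) and of Ido1 (right) against CPM of Nos2, both on log axes, with 1 point per library, colour for dose and shape for antibody. Ido1 climbs with Nos2 over the whole range, while the 2 libraries with the highest Nos2 (74.3 and 112 CPM) have 74.7 and 132 CPM of Arg1.

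**Figure D4:**
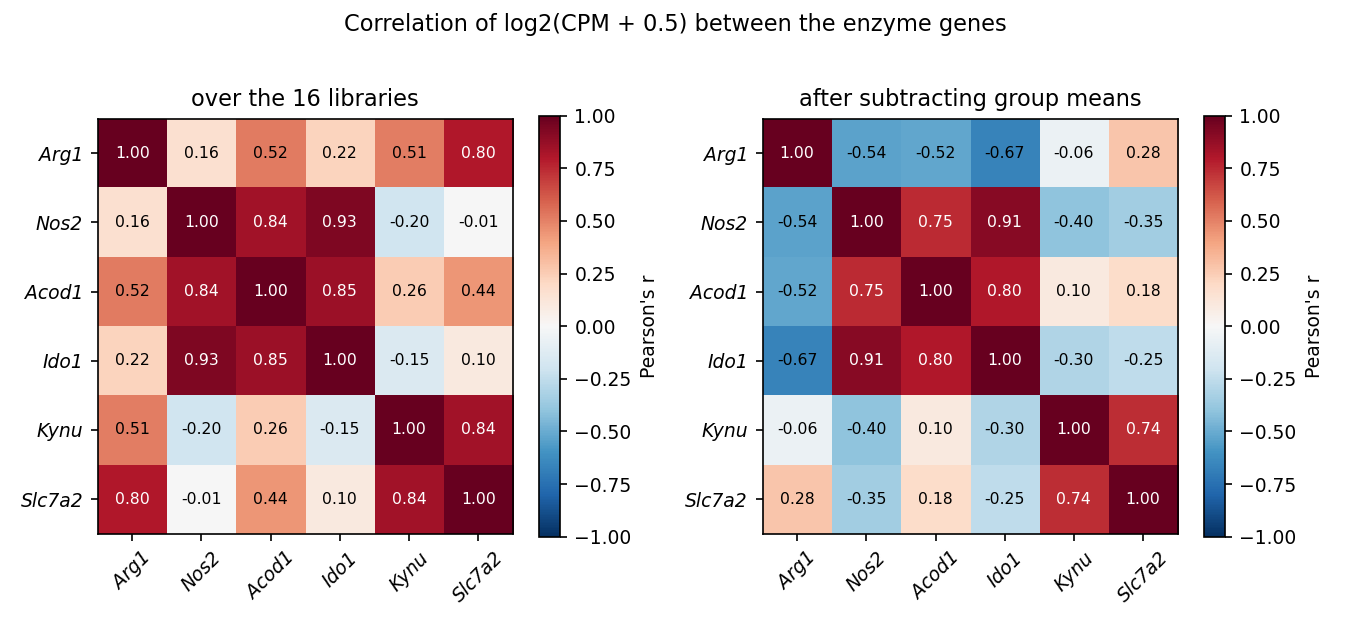
Pearson's r of log2(CPM + 0.5) between each pair of the 6 genes, over the 16 libraries (left) and after subtracting the group means (right), with colour from -1 to 1. Nos2, Acod1 and Ido1 form a block of 0.84 to 0.93 on the left and 0.75 to 0.91 on the right, where Arg1 has -0.54 to -0.67 with Nos2 and Ido1.

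The genes most like each of the 6 were taken by r over the 16 libraries, with r after subtracting group means as a second value. For Arg1 they were Egln1 (0.91 and 0.73), Litaf (0.91 and 0.92), Fcgr3 (0.91 and 0.76), Pgam1 (0.90 and 0.73) and AA467197 (0.90 and 0.78). For Nos2 they were Neurl3 (0.97 and 0.93), Tubb3 (0.97 and 0.96), Batf2 (0.97 and 0.95), Socs1 (0.96 and 0.97) and Irf1 (0.94 and 0.89). The nearest to Acod1 were Samhd1 (0.95 and 0.86), Isg20 (0.94 and 0.83), Upp1 (0.94 and 0.84), Pdcd1lg2 (0.94 and 0.74) and Ass1 (0.94 and 0.80). Ido1 was closest to the guanylate-binding protein genes Gbp2 (0.97 and 0.97), Gbp3 (0.97 and 0.96), Gbp10 (0.96 and 0.96) and Gbp5 (0.95 and 0.94), and to Zbp1 (0.95 and 0.93). Near-identical members of the Gbp family may share reads. Kynu was closest to March1 (0.96 and 0.98), Foxo1 (0.95 and 0.91), Pip4k2a (0.94 and 0.91), Itga4 (0.94 and 0.93) and Bmp2k (0.94 and 0.93). Slc7a2 was closest to Snx18 (0.94 and 0.77), Skap2 (0.92 and 0.76), Etv6 (0.92 and 0.72), Cd244a (0.91 and 0.65) and Usp25 (0.91 and 0.68). Each such gene is the top of a ranking of all tested genes, so a high r was bound to be found.

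Anti-PD-1 was compared with IgG over all doses and at each dose, which asks whether checkpoint blockade moved these enzymes. With limma and Benjamini-Hochberg adjustment over all 17546 tested genes, 0 of the 6 passed the threshold of 0.05 over all doses, where 0.234% of all genes did, and 2 had an unadjusted p under 0.05. Those 2 were Kynu, at -0.45 ± 0.17 (adjusted p = 0.179), and Slc7a2, at -0.27 ± 0.12 (adjusted p = 0.235). At 0 Gy 0 of 6 passed (0.274% of all genes), at 4 Gy 0 of 6 (15.5%) and at 8 Gy 0 of 6 (0.00570%), and 0 had an unadjusted p under 0.05 in any of them. At 4 Gy Nos2 was at 22.6 ± 5.62 CPM with IgG and 66.8 ± 49.1 CPM with anti-PD-1, a log2 difference of 1.14 ± 0.67 (adjusted p = 0.230). Leaving out anti-PD-1 4 Gy replicate 1 gave 2.01 (adjusted p = 0.00952). Leaving out the 2 outlying libraries, which leaves 1 library in the anti-PD-1 group, gave -0.61. At 8 Gy Arg1 was at 563 ± 234 CPM with IgG and 329 ± 47.3 CPM with anti-PD-1, a difference of -0.71 ± 0.37 (adjusted p = 0.447).

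Whether the dose difference itself depended on the antibody was tested with the interaction term. Of the 6 genes, 0 passed for 8 against 0 Gy (0% of all genes), with 0 at an unadjusted p under 0.05. For 4 against 0 Gy 0 passed (9.08% of all genes), with 1 at an unadjusted p under 0.05, and for 8 against 4 Gy 0 passed (0%), also with 1. That gene was Acod1 both times. Its difference between 4 and 0 Gy was 1.67 ± 0.68 larger with anti-PD-1 (limma, adjusted p = 0.104), and its difference between 8 and 4 Gy was -1.54 ± 0.64 by the same measure (adjusted p = 0.147). The first of these was 2.13 (adjusted p = 0.0211) without IgG 0 Gy replicate 2 and 1.12 without the 2 outlying libraries. In 23 of 24 alternative settings it stayed on the same side of the threshold as in the main fit. For Nos2 the term for 4 against 0 Gy was 1.496 ± 0.951 (adjusted p = 0.276). Leaving out anti-PD-1 4 Gy replicate 1 gave 2.37 for this term (adjusted p = 0.0208), and leaving out the 2 outlying libraries -0.25.

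Markers of macrophages and monocytes moved in part with the enzymes. Of 10, 5 were higher at 8 than at 0 Gy and 0 lower (limma, adjusted p under 0.05), where 4.68% of all genes were higher and 16.1% lower. Among the 5 were the Fc receptor gene Fcgr1 (1.20) and the inflammatory monocyte genes Ly6c2 (1.33) and Ccr2 (1.23). At 4 against 0 Gy 2 were higher and 1 lower, beside 5.33% and 12.2% of all genes. The summed CPM of the 10 depended on the antibody. With IgG it was 5773 to 7033 without irradiation and 6130 to 7143 after 8 Gy, which overlapped, and with anti-PD-1 it was 3245 to 4141 and 4988 to 5910, which did not. Between the antibodies at 0 Gy, 1 of the 10 was lower with anti-PD-1 and 0 higher, and their median log2 difference was -0.64, beside 0.04 over all genes. The part of this in the antibody comparisons of the enzymes was not tested.

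Per 1000 CPM of these markers, Arg1 was 1.47 higher on the log2 scale at 8 than at 0 Gy and Acod1 2.32 higher, both with no overlap between doses. Nos2 was 1.54, Ido1 1.73, Slc7a2 0.23 and Kynu 0.04 higher, with overlap. Lyz2, the lysozyme gene, made up 70.2 to 86.1% of the summed markers, so this scale was largely that of 1 gene, and Lyz2 itself differed by 0.23 ± 0.14 between 8 and 0 Gy (limma, adjusted p = 0.254). On the scale of the other 9 markers, added after seeing the data, Arg1 was 1.21, Nos2 1.28 and Acod1 2.06 higher with no overlap, and Ido1 1.48 higher with overlap. Slc7a2 and Kynu changed sign there, at -0.03 and -0.21.

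Neutrophil markers also moved differently in the 2 antibody arms. Their summed CPM with IgG was 141 to 198 without irradiation and 229 to 346 after 8 Gy, and with anti-PD-1 it was 228 to 596 and 175 to 212, so that the groups did not overlap in either arm and the order was reversed. Of 8 tested, 1 was higher and 1 lower at 8 against 0 Gy, where 4.68% of all genes were higher and 16.1% lower. At 4 against 0 Gy 3 were lower, beside 12.2% of all genes. With anti-PD-1 at 0 Gy 2 were higher, where 0.274% of all genes were called in either direction. Mmp8, a collagenase gene of neutrophil granules and one of those lower at both doses, had 21.7 and 66.2 CPM in the 2 unirradiated anti-PD-1 libraries and 4.42 to 5.82 CPM in the 3 with IgG. The part of neutrophils in the Arg1 values was not tested. Of 8 dendritic cell markers, 1 was lower at 8 Gy and 1 at 4 Gy, a share near that of all genes.

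All 9 lung epithelial markers were higher at 4 than at 0 Gy and lower at 8 than at 4 Gy, with sums of 11111 to 24956 CPM after 4 Gy, 1684 to 8850 CPM without irradiation and 1711 to 7177 CPM after 8 Gy. Of 6 endothelial markers, 4 were higher at 4 than at 0 Gy (limma, adjusted p from 0.0302 to 0.0493) and 6 lower at 8 than at 4 Gy. Over all genes 5.33% were higher in the first of these comparisons and 17.2% lower in the second. The part of these cells in the enzyme differences was not tested. Hepatocytes, the richest source of Arg1 in the body, left little trace, since the 8 markers present summed to 3.24 to 31.6 CPM over all libraries and 5 of them stayed under 1 CPM in all of them. Skeletal muscle markers summed to 0.499 to 31.4 CPM, and 4 of 4 tested were lower at both doses than at 0 Gy. Over all genes 16.1% were lower at 8 Gy and 12.2% at 4 Gy.

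Around the 6 enzymes, 82 other genes of the pathways were tested, from 7 lists of 91 symbols chosen with earlier results of these data known. The counts and p-values of all 7 lists between doses are therefore descriptions and support nothing. At 8 against 0 Gy 14 were higher and 9 lower (limma, adjusted p under 0.05), where 4.68% of all genes were higher and 16.1% lower. The median log2 difference of the 82 was 0.06, beside -0.09 over all genes. At 4 against 0 Gy 12 were higher and 8 lower, where 5.33% and 12.2% of all genes were, with a median of -0.09 beside -0.14. At 8 against 4 Gy 14 were higher and 7 lower, where 17% and 17.2% of all genes were, with a median of 0.11 beside 0.06. The split moved with the scaling. At 8 against 0 Gy it was 15 higher and 4 lower with quantile normalization and 18 and 5 with equal medians, and at 4 against 0 Gy 17 and 5, and 16 and 3. The 4 Gy calls rested on few libraries: there were 0 without the 2 outlying libraries (21 at an unadjusted p under 0.05), 0 without IgG 4 Gy replicate 2 (28 unadjusted) and 1 when only the 0 and 4 Gy groups were fitted. All 14 genes that the naming rule picks for that comparison lost their call without the 2 outlying libraries, and all 14 without IgG 4 Gy replicate 2. Of the 16 that it picks for 8 against 0 Gy, 10 held in all 24 alternative settings. Of the 16 for 8 against 4 Gy, 7 held in every setting that could be run, 6 lost their call without the 2 outlying libraries and 5 without IgG 4 Gy replicate 2.

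In the arginine list, 2 of 14 genes rose and 3 fell at 8 against 0 Gy. Ass1, argininosuccinate synthase, which begins the rebuilding of arginine from citrulline, had means of 12.5 ± 4.46, 25.6 ± 5.20 and 27.1 ± 6.31 CPM at 0, 4 and 8 Gy (± SD, n = 5, 5 and 6, as for the genes below). It rose by 1.17 ± 0.17 at 8 Gy (adjusted p = 0.000641) and by 1.05 ± 0.17 at 4 Gy (adjusted p = 0.00648, and 0.0808 without the 2 outlying libraries). Gatm, which passes arginine's amidino group on towards creatine, rose from 57.0 ± 6.69 to 79.6 ± 8.07 CPM at 8 Gy (0.50 ± 0.09, adjusted p = 0.00270) and by 0.71 ± 0.09 against 4 Gy. Prodh, which breaks down proline, fell from 19.2 ± 5.29 to 10.7 ± 3.92 CPM (-0.87 ± 0.21, adjusted p = 0.0103). Nos3, the endothelial nitric oxide synthase, had means of 2.72 ± 1.38, 5.47 ± 1.64 and 0.963 ± 0.351 CPM at 0, 4 and 8 Gy. It fell by 1.11 ± 0.27 at 8 against 0 Gy (adjusted p = 0.0126) and by 1.97 ± 0.27 against 4 Gy. Of the 6 endothelial markers, 1 was lower in the first of these comparisons and all 6 in the second. The part of endothelial cells in the Nos3 values was not tested. The third gene that fell was Slc7a3, a cationic amino acid transporter (-0.90 ± 0.26, adjusted p = 0.0255), named after its value was seen. Slc7a1, which encodes the housekeeping arginine transporter CAT1, had means of 107 ± 15.3, 83.5 ± 16.6 and 109 ± 9.37 CPM at 0, 4 and 8 Gy, and rose between 4 and 8 Gy by 0.36 ± 0.12 (adjusted p = 0.0268, and 0.192 without the 2 outlying libraries).

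Of 11 polyamine genes, 2 rose and 2 fell at 8 against 0 Gy. Odc1, ornithine decarboxylase, the enzyme that takes up arginase's product, had means of 155 ± 13.1, 191 ± 17.1 and 205 ± 13.4 CPM at 0, 4 and 8 Gy, a rise of 0.40 ± 0.08 at 8 Gy (adjusted p = 0.00330). Smox, spermine oxidase, rose by 0.56 ± 0.11 (adjusted p = 0.00419). Paox, the peroxisomal polyamine oxidase, fell by 0.39 ± 0.11 (adjusted p = 0.0227), a call that held in 19 of 24 alternative settings. Azin2, an antizyme inhibitor, was at 5.57 ± 1.29, 12.2 ± 6.05 and 3.17 ± 1.43 CPM at 0, 4 and 8 Gy, which gave a rise of 0.83 ± 0.22 at 4 Gy (adjusted p = 0.0268) and a fall at 8 Gy (-0.79 ± 0.21, adjusted p = 0.0166). The rise of Azin2 held in 16 of 24 alternative settings and its fall in 22. At 4 against 0 Gy 4 of 11 rose, with Oaz2, an antizyme gene, at 0.42 ± 0.09 (adjusted p = 0.0169), and none fell.

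Tetrahydrobiopterin is the cofactor that nitric oxide synthases need. Of its 7 genes, 1 fell at 8 against 0 Gy and none rose. That was Pts, which makes the middle step of its synthesis, at 28.2 ± 7.04 and 19.99 ± 2.12 CPM at 0 and 8 Gy (-0.50 ± 0.16, adjusted p = 0.0439). The call at 8 Gy held in 9 of 24 alternative settings. Pts also fell at 4 Gy (-0.64 ± 0.17, adjusted p = 0.0280).

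In the tryptophan list, 2 of 14 genes rose and 2 fell at 8 against 0 Gy. Wars, the tryptophanyl-tRNA synthetase, a known interferon target, had means of 89.9 ± 27.7, 167 ± 39.8 and 153 ± 19.2 CPM at 0, 4 and 8 Gy. It rose by 0.82 ± 0.17 at 8 Gy (adjusted p = 0.00500) and by 0.90 ± 0.18 at 4 Gy (adjusted p = 0.0127). Slc7a8, an amino acid transporter, rose by 0.88 ± 0.15 at 8 Gy (adjusted p = 0.00173). Kyat1, a kynurenine aminotransferase that makes kynurenic acid, fell from 8.87 ± 1.42 to 4.81 ± 1.20 CPM (-0.84 ± 0.17, adjusted p = 0.00440). Afmid, the formamidase that acts just after Ido1, fell from 13.1 ± 0.90 to 9.82 ± 0.93 CPM (-0.39 ± 0.11, adjusted p = 0.0273). This held in 15 of 24 alternative settings. Tdo2, the liver's tryptophan dioxygenase, was low, at 1.55 ± 1.59, 0.822 ± 0.332 and 1.55 ± 0.565 CPM at 0, 4 and 8 Gy, and it differed between 8 and 4 Gy by 0.59 ± 0.21 (adjusted p = 0.0424). Ddc, which makes serotonin from 5-hydroxytryptophan, rose by 0.94 ± 0.33 in that comparison (adjusted p = 0.0389). Tdo2 and Ddc each held in 14 of 24 alternative settings.

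The aryl hydrocarbon receptor is the sensor that kynurenine can activate. Of 6 tested genes of the receptor and its targets, 0 passed the threshold at 8 against 0 Gy (limma, 0 at an unadjusted p under 0.05). At 4 against 0 Gy 2 fell, the target Cyp1b1 from 30.2 ± 15.9 to 11.2 ± 6.25 CPM (-1.27 ± 0.31, adjusted p = 0.0207) and the partner Arnt by 0.35 ± 0.11 (adjusted p = 0.0459). The call of Arnt held in 4 of 24 alternative settings, and that of Cyp1b1 in 20. At 8 against 4 Gy the target Tiparp rose by 0.85 ± 0.26 (adjusted p = 0.0228, and 0.243 without the 2 outlying libraries) and the target Cyp1a1 fell by 1.42 ± 0.49 (adjusted p = 0.0390), from 3.43 ± 4.95 to 0.0799 ± 0.0720 CPM, a call that held in 12 of 21 alternative settings.

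Around Acod1, 0 of 13 citric acid cycle and itaconate genes passed the threshold at 8 against 0 Gy (limma, 1 at an unadjusted p under 0.05). At 4 against 0 Gy 3 fell, led by Sdha, the subunit of succinate dehydrogenase that binds succinate (194 ± 7.28 to 150 ± 18.7 CPM, -0.35 ± 0.08, adjusted p = 0.0190). At 8 against 4 Gy 6 of 13 rose, led by Idh3a, an isocitrate dehydrogenase subunit (0.41 ± 0.09, adjusted p = 0.00453), and Sucla2, a succinyl-CoA synthetase subunit (0.64 ± 0.16, adjusted p = 0.00796). Neither of the latter 2 passed without the 2 outlying libraries, at adjusted p = 0.0545 and 0.0918.

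Cytokines, receptors and transcription factors known to induce the 6 enzymes gave the largest number of calls, with 8 of 17 up and 1 down at 8 against 0 Gy. Over all genes 4.68% were higher and 16.1% lower in that comparison. Like the counts of the other lists, this one supports nothing, since all were chosen with earlier results of these data known. Il1b, encoding interleukin-1 beta, had means of 32.9 ± 9.59, 40.3 ± 8.45 and 103 ± 54.7 CPM at 0, 4 and 8 Gy, and rose by 1.53 ± 0.17 against 0 Gy (adjusted p = 0.000279) and by 1.22 ± 0.17 against 4 Gy (adjusted p = 0.000469). Csf2, encoding the growth factor GM-CSF, rose from 3.14 ± 0.92 to 6.69 ± 1.43 CPM (1.03 ± 0.19, adjusted p = 0.00276), and was at 7.56 ± 2.81 CPM at 4 Gy (1.08 ± 0.20, adjusted p = 0.0109). Ifngr1, a chain of the interferon gamma receptor, fell from 306 ± 54.1 to 246 ± 22.9 CPM (-0.34 ± 0.09, adjusted p = 0.0197). This call held in 20 of 24 alternative settings, and equal library medians were among those in which it was lost. Among the others that rose, and named after their values were seen, were Ifng (1.28), Irf1 (0.93), Tnf (0.87), Hif1a (0.78) and Irf8 (0.73). Tnf was also higher at 4 than at 0 Gy, by 1.08 ± 0.24 (adjusted p = 0.0155). Hif1a, the oxygen-regulated factor that can drive Arg1, rose between 4 and 8 Gy by 1.13 ± 0.22 (adjusted p = 0.00227, and by 0.71 without the 2 outlying libraries, adjusted p = 0.0255), from 77.7 ± 30.9 to 169.99 ± 36.3 CPM. Hif1a and Il1b were the 2 of this list that passed in that comparison, in which 17% of all genes were higher. Arg1 and the transporter gene Slc7a2 were the 2 of the 6 genes without overlap there, beside 6.06% of all genes. Whether Hif1a or Il1b had a part in the enzyme differences was not tested.

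**Figure D5:**
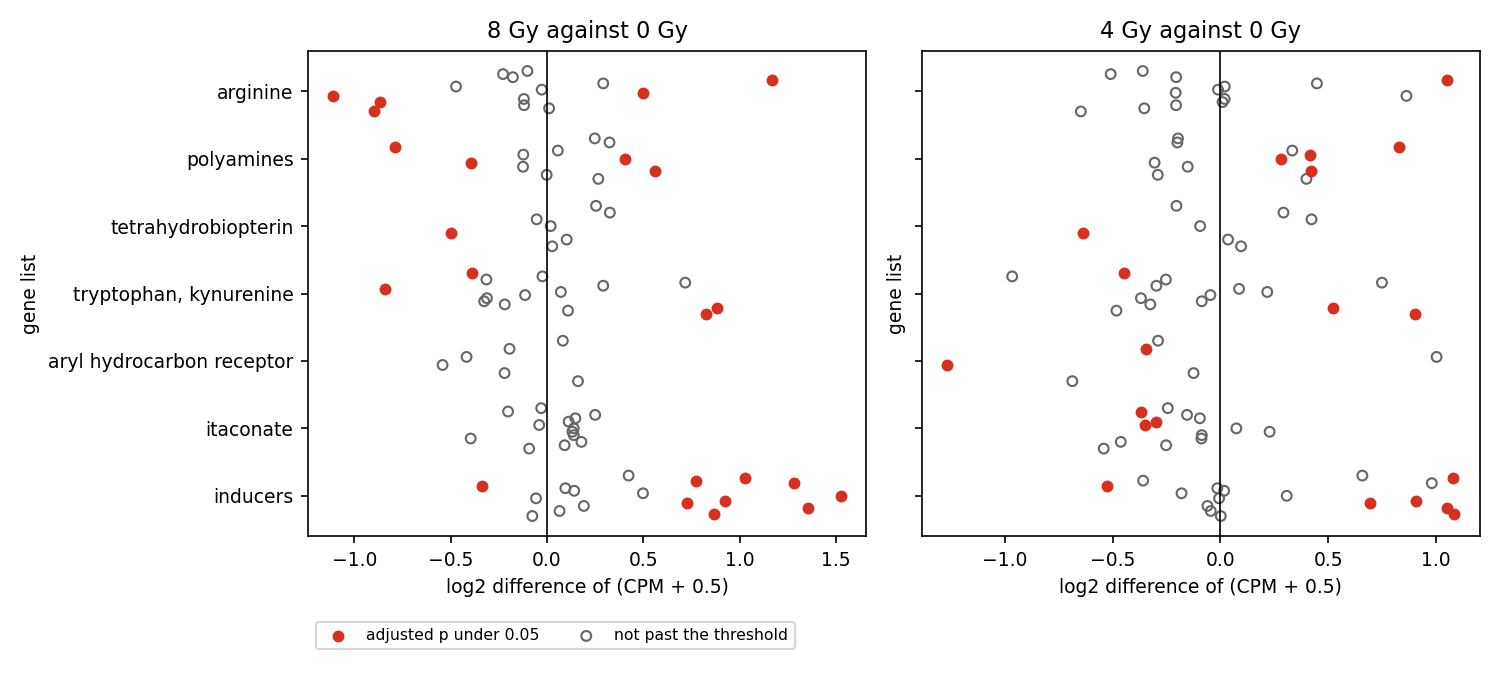
Log2 difference of CPM + 0.5 (horizontal) of the 82 other pathway genes, by list (vertical), for 8 Gy against 0 Gy (left) and 4 Gy against 0 Gy (right), with filled points for an adjusted p under 0.05 in limma. The inducers hold 8 of the 14 filled points to the right of 0 at 8 Gy, and the itaconate list holds none there.

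Between the antibodies, 0 of the 82 pathway genes passed over all doses (limma, 15 at an unadjusted p under 0.05) and 0 at 8 Gy (10 unadjusted). At 0 Gy 1 was higher with anti-PD-1, Tdo2 (2.01 ± 0.31, adjusted p = 0.0214), and 1 lower, Slc7a8 (-1.17 ± 0.22, adjusted p = 0.0468), both named after their values were seen. Over all genes 0.274% were called at 0 Gy, and 0 genes were called without IgG 0 Gy replicate 1. The level of Tdo2 was low, as given above. At 4 Gy 6 were higher and 6 lower, where 15.5% of all genes were called, so the pathway genes were near the background. Without the 2 outlying libraries 0 of them passed in limma, with 4 at an unadjusted p under 0.05, and 0 of all genes, with 1166 unadjusted.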

How the data were processed

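The deposited values are CPM per gene and library, with an offset of 1e-04 that was subtracted. The listed genes sum to 866770 to 915006 CPM per library. STAR, Partek and the build mm10 are named per the submitters' processing notes, without versions, and annotation and strand setting are not stated in the sources. Allowing 0.02 of a read, 60.1 to 63.1% of the low values came out whole, so reads were not recovered and no count model was used. Precision is limited by depth, and 3 reads correspond to at most 0.125 CPM.

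Log2(CPM + 0.5) was fitted with limma 3.58.1 in R 4.3.3 (trend, robust) over 17546 genes that reached 1 CPM in 2 or more libraries, with tables read by the data.table package (1.17.8). The 16 libraries shared 1 fit of 6 group means. Dose comparisons average both antibodies, and p-values were adjusted over all tested genes. The log2(CPM + 0.5) scale understates changes of low genes.

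The 6 genes and all lists were chosen with earlier results of these data known. From each list up to 2 genes per direction and dose comparison with the lowest p were named among those past the threshold, and 5 genes most like each enzyme, predicted genes passed over. Aadat, Oxgr1 and Cps1 were not analysed here. A few genes of the lists are counted but not reported here by name. Of 25 symbols turned into dates, 23 were restored from their coordinates. The procedure was tested on simulated data. Alternatives were quantile normalization, no filter, pseudocounts of 0.1 and 1, a replicate block, the compared groups only, an additive model and leaving out each library. Equal library medians, macrophage markers without Lyz2 and leaving out the 2 outlying libraries were added after seeing the data.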

Additional observations from a re-analysis of the deposited data

How the results depend on the processing

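For 45 comparisons of single enzyme genes, 24 alternative settings each gave 1080 fits, of which 1054 kept the result. For antibody and interaction tests this meant the same direction and side of the threshold. For dose differences it meant the same direction and a shift smaller than the spread between replicates. Of the rest, 21 changed sign, 2 dose differences moved by more than that spread and 3 tests newly passed the threshold. The cause was not tested. Without the 2 outlying libraries, anti-PD-1 against IgG changed sign for Nos2 over all doses (-0.23), and at 4 Gy for Nos2 (-0.61), Ido1 (-0.48), Kynu (0.20) and Slc7a2 (0.14). So did Arg1 (0.0747) and Kynu (0.0131) for 4 against 0 Gy and the Nos2 interaction for 4 against 0 Gy (-0.25), while Nos2 moved to 0.81 for 4 against 0 Gy and 0.98 for 8 against 4 Gy. Leaving out 1 library at a time, signs changed within the ranges -0.80 to 0.14 for Nos2 and -0.32 to 0.99 for Ido1 (antibodies at 0 Gy), -0.12 to 0.39 for Arg1 and -0.38 to 0.0186 for Slc7a2 (antibodies at 4 Gy), -0.33 to 0.0489 for Arg1 (4 against 0 Gy) and -0.33 to 0.40 for Nos2 (8 against 4 Gy). The 3 interactions given above were chosen after their values were seen. The other 15 had 39 sign changes among 360 settings, in 12 of the 15, and 0 calls.

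Enzyme genes called between antibodies at 4 Gy, and in the interaction for 4 against 0 Gy, ranged from 0 to 1 with 1 library left out, and were 0 in the other antibody tests. Enzyme genes without overlap ranged from 4 to 5 (8 against 0 Gy), 1 to 3 (4 against 0 Gy) and 2 to 3 (8 against 4 Gy). Calls among the 82 other pathway genes ranged from 12 to 26, 0 to 41 and 12 to 28 in the same order, with 12 for 8 against 0 Gy without anti-PD-1 0 Gy replicate 2 and 41 for 4 against 0 Gy without anti-PD-1 4 Gy replicate 1. Without the 2 outlying libraries they were 0 for 4 against 0 Gy and 10 for 8 against 4 Gy, and with the compared groups only 1 for 4 against 0 Gy. Where a group of 2 lost a library, or the 2 outlying libraries were left out, the 1 remaining library was assumed to vary like the other groups.

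The libraries share replicate numbers but no named source, and 36 pairs of the same number had residual correlations from -0.55 to 0.44 with a median of -0.10, so the numbers were not taken as pairs. With a replicate block 0 of the 6 enzyme genes were called between antibodies, and the pathway genes called were 21 for 8 against 0 Gy, 15 for 4 against 0 Gy and 18 for 8 against 4 Gy, beside 23, 20 and 21.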
